A study of Mus musculus with 12 samples.

Results

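The Hox genes of the 4 mammalian clusters were examined in embryos that carry the whirligig allele of Chd7. Every probe whose transcript accession maps to 1 of the 39 mouse Hox genes was taken, and the genes were sorted by cluster (a to d) and by paralogue number. For 38 of the 39 the array holds probes reported below, 41 in all, and 1 is not analysed here. Of the 38, 28 were bright enough to be tested among 22568 genes or transcript identifiers.

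Hox genes encode homeodomain transcription factors that give cells of the hindbrain, spinal cord, somites and limbs their position along the body. Within a cluster the genes lie in the order in which they are switched on: those with low paralogue numbers are active early and reach up to the hindbrain, while those with high numbers come on later in the tail bud. Retinoic acid, Fgf and Wnt signals, with Cdx factors among their mediators, start and extend this sequence, and Trithorax and Polycomb proteins keep it. Chd7 is a chromatin remodeller that binds at enhancers and is mutated in CHARGE syndrome, and the whirligig allele carries a nonsense mutation.

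RNA of 12 whole female embryos at embryonic day 9.5 was hybridised to 1-colour Agilent arrays, 4 of each genotype: Chd7Whi/Whi (homozygous, called a knockout in the labels), Chd7Whi/+ (heterozygous) and Chd7+/+ (wild type). All came from matings of heterozygotes on a mixed C3HeB/FeJ background and were freed from their yolk sacs, so the mothers of all groups were heterozygous too. The allele acts in every cell of the embryo, and the number of somites of each embryo was not analysed here. The number of a replicate only tells arrays apart, since it follows the order of accessions, and per the labels those of 1 genotype are biological replicates. A value below is log2 of the processed signal scaled to the array's 75th percentile, and is mostly given relative to the wild-type mean of the same probe, since levels of different probes cannot be compared. The 75th percentile of the signal was 1095 to 1721, and 70.0% to 76.4% of probes were well above background. The arrays lay on 3 slides, each with all 3 genotypes, while position 1 of the slides held 3 arrays, all wild type. A slide held only 1 or 2 arrays of a genotype, so a difference within a slide rests on those few. The level of Chd7 itself was not analysed here, so the genotypes are those of the labels. In whole embryos fewer cells that express a Hox gene and less RNA per cell cannot be told apart.

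Heterozygous replicate 1 stood apart in its tissue markers. All 5 heart markers were far lower on it than on any other array: Nppa, Myl2, Myl7, Tnnt2 and Myh6 lay at -7.34, -6.14, -4.03, -3.61 and -5.71 relative to the wild-type mean. The summed signal of these 5 genes spanned 55.7 to 84.7 times the 75th percentile in homozygotes, 1.82 to 71.0 in heterozygotes and 44.1 to 72.2 in wild type, and all 5 were well above background on all 12 arrays. Tail bud markers (T, Tbx6, Wnt3a, Fgf8 and Cdx2) had a median of 1.59 on this array, against -0.11 to 0.25 on the other heterozygous arrays, while the median of 6 head markers was 0.10. The same array had the highest medians of the anterior (0.36), central (0.81) and posterior (2.34) Hox genes. The heterozygous Hox medians and the values of named Hox genes are therefore given with and without it.

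Which Hox genes could be measured followed the paralogue number. All 22 genes of paralogue groups 1 to 8 were well above background on all 12 arrays, from Hoxb1, Hoxd1, Hoxa2, Hoxb2, Hoxa3, Hoxb3 and Hoxd3 in the anterior groups to Hoxb8, Hoxc8 and Hoxd8. In group 9, Hoxa9, Hoxb9 and Hoxc9 were above background on all 12 arrays, and Hoxd9 on 2 of 4 homozygous arrays and on all heterozygous and wild-type arrays. Of the genes beyond group 9 only Hoxc10 and Hoxd11 met the filter, which asks for all 4 arrays of at least 1 genotype. Hoxc10 was above background on 4 homozygous, 3 heterozygous and 3 wild-type arrays, and Hoxd11 on 4, 4 and 3.

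The 10 untested genes were Hoxa10, Hoxa11, Hoxa13, Hoxb13, Hoxc11, Hoxc12, Hoxc13, Hoxd10, Hoxd12 and Hoxd13, which pattern the trunk end, limb and genital regions. Hoxb13 and Hoxd12 were above background on no array. Of the other 8, Hoxa10, Hoxa11, Hoxa13, Hoxc11, Hoxc13, Hoxd10 and Hoxd13 were above background on heterozygous replicate 1, and for Hoxc11 and Hoxd13 it was the only such array. Hoxc12 was above background on heterozygous replicate 4 and wild-type replicate 4. On homozygous arrays these 8 genes were above background only for Hoxa13 (replicate 2, and replicate 1 on its further probe) and Hoxd10 (replicate 4).

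**Figure D1:**
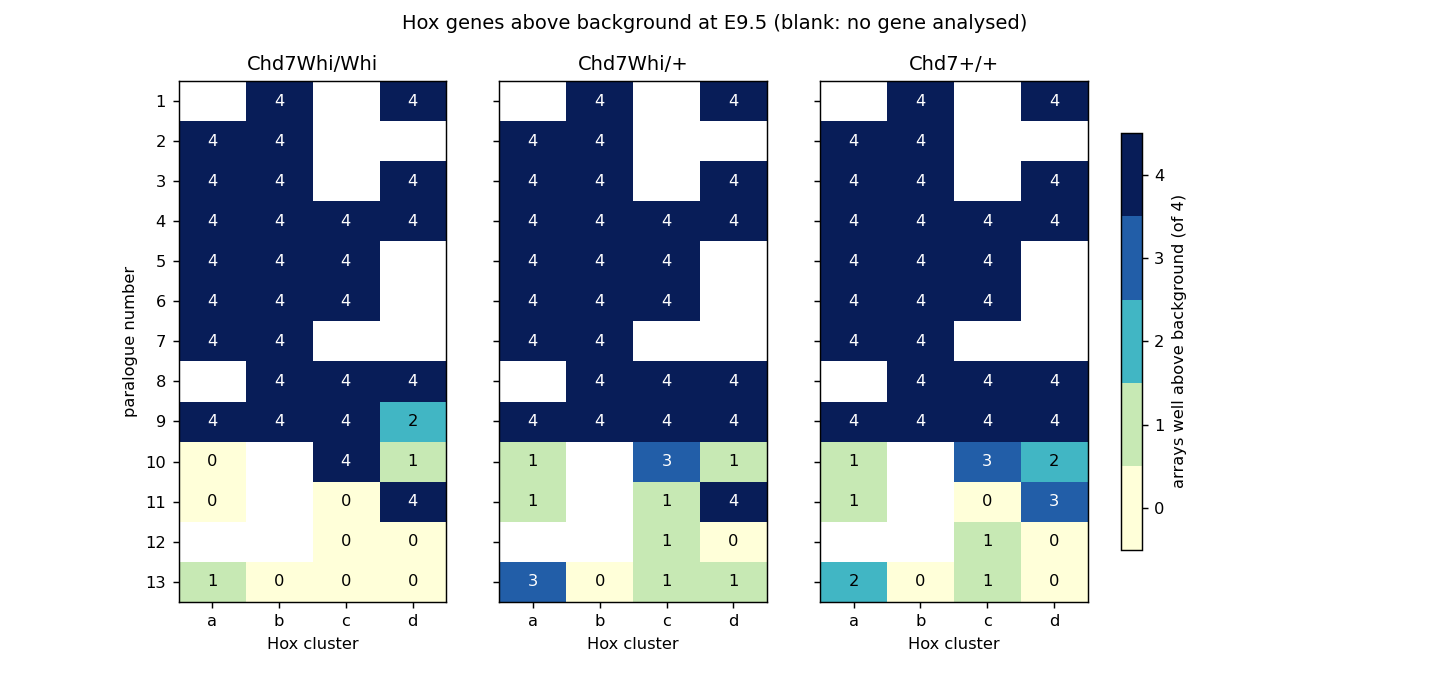
Number of arrays, of 4 per genotype, on which each Hox gene was well above background, by cluster (columns a to d) and paralogue number (rows 1 to 13). All genes of groups 1 to 8 were above background on 4 arrays of each genotype, and signals became patchy beyond group 9.

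Hox signals were lower in homozygous embryos for nearly every gene, and none passed the test on its own. Of the 28 tested genes 26 were lower in value, against 46.5% of all genes tested, and the median log2 difference was -0.55, against 0.02 over all genes. With limma 0 of 28 passed an adjusted p of 0.05, where 1.35% of all genes did (0.864% lower and 0.487% higher). At an unadjusted p under 0.05, 13 of 28 were lower and 0 were higher, where 8.3% of all genes were lower and 8.66% higher. The 4 homozygous arrays lay below the 4 wild-type arrays without overlap for 7 genes (Hoxa2, Hoxa5, Hoxa9, Hoxb4, Hoxd1, Hoxd3 and Hoxd9, the last with 2 homozygous arrays not well above background), where 8.22% of all genes did. They lay above them for 1 (Hoxb1), where 5.86% did. Among the 25 genes above background on all 12 arrays, 24 were lower and the median was -0.58.

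The lower values were found on every homozygous array. The median over the 28 genes, relative to the wild-type mean, was -0.84, -0.50, -0.52 and -0.33 on homozygous replicates 1 to 4, against 0.31, -0.35, -0.08 and 0.08 on wild-type replicates 1 to 4. On these homozygous arrays 26, 25, 26 and 24 of the 28 genes lay below the wild-type mean. On wild-type replicates 1 to 4 the count was 2, 24, 20 and 6, and on heterozygous replicates 1 to 4 it was 1, 13, 9 and 22. A count of 24 was thus reached by a wild-type array too. The ranges of the medians overlapped by 1 array on each side: wild-type replicate 2 (-0.35) was lower than homozygous replicate 4 (-0.33). Within slides 1, 2 and 3 the median difference between homozygous and wild-type arrays was -1.16, -0.34 and -0.61, with 27, 21 and 26 of 28 genes lower. Slide 1 set homozygous replicate 1 against wild-type replicate 1, which had the lowest and the highest median of these 2 genotypes.

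**Figure D2:**
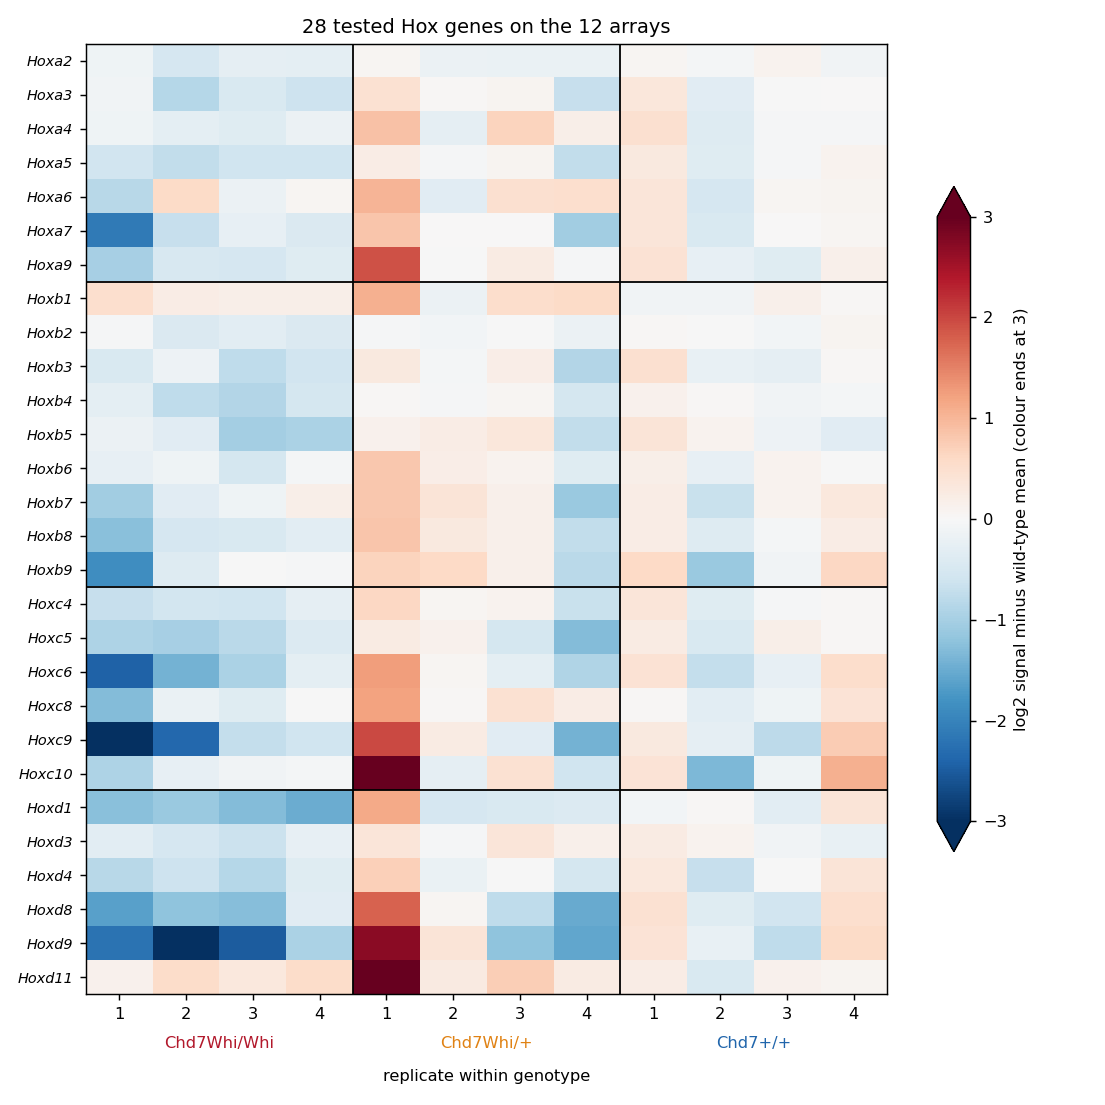
Log2 signal of the 28 tested Hox genes (rows, by cluster and paralogue number) on the 12 arrays (columns, homozygous, heterozygous and wild type), as the difference from the wild-type mean. Homozygous arrays are mostly blue (lower), heterozygous replicate 1 is red (higher) and heterozygous replicate 4 is mostly blue.

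Among the anterior genes (groups 1 to 3), 6 of 7 were lower, with a median of -0.43. Hoxd1 had the smallest p of all Hox genes. Its 4 homozygous values were -1.25, -1.11, -1.31 and -1.50, against -0.09, 0.03, -0.32 and 0.39 in wild type. The homozygous arrays lay close together and below every wild-type array. The log2 difference was -1.29 ± 0.32 (SE, n = 4 each, 95% interval -1.99 to -0.60, 2.45-fold lower, limma adjusted p = 0.0765). Without heterozygous replicate 1, which enters this comparison only through the common estimate of spread, the same difference had an SE of 0.15 and an adjusted p of 0.00206. Leaving out any other array gave limma adjusted p values of 0.0686 to 0.236. With normexp the difference was -0.97 (limma adjusted p = 0.219). With the array position as a block it was -0.96, which rests on wild-type replicate 3 alone. The other wild-type arrays lay at position 1, which held no homozygous array, so this block cannot test the gene. Within the 3 slides it was -1.16, -0.97 and -1.79.

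Hoxb1 had the opposite sign within the same paralogue group. This gene, which specifies the hindbrain segment called rhombomere 4, had 0.50, 0.23, 0.19 and 0.17 in homozygotes, against -0.10, -0.10, 0.16 and 0.05 in wild type. The homozygous arrays lay just above the wild-type arrays, and the difference of 0.27 ± 0.21 did not pass the test (limma adjusted p = 0.53). Hoxd3 had -0.32, -0.51, -0.63 and -0.25 in homozygotes, against 0.24, 0.11, -0.11 and -0.23 in wild type, without overlap (-0.43 ± 0.14, limma adjusted p = 0.163).

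Hoxa2 and Hoxb2, which act in the hindbrain and in the pharyngeal arch next to the jaw arch, differed by small and similar amounts. Hoxa2 had -0.13, -0.50, -0.27 and -0.30 in homozygotes, against 0.07, -0.06, 0.11 and -0.11 in wild type (-0.30 ± 0.10, limma adjusted p = 0.189). Hoxb2 had -0.03, -0.43, -0.31 and -0.42 in homozygotes, against 0.02, -0.01, -0.09 and 0.08 in wild type (-0.30 ± 0.10, limma adjusted p = 0.187). For Hoxb2 homozygous replicate 1 lay among the wild-type arrays, and for Hoxa2 the arrays did not overlap. The other 2 anterior genes were Hoxa3 (-0.51 ± 0.24) and Hoxb3 (-0.49 ± 0.25). A further probe of Hoxb3 gave 0.08 for the same comparison, so its direction depends on the probe.

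Of the 15 central genes (groups 4 to 8), which pattern the neck and trunk, all 15 were lower in value, with a median of -0.62. Hoxb4 had -0.29, -0.76, -0.87 and -0.52 in homozygotes, against 0.13, 0.03, -0.10 and -0.06 in wild type. The groups did not overlap, and the difference was -0.61 ± 0.16 (1.53-fold lower, limma adjusted p = 0.086). It was -0.43, -0.73 and -0.64 within the slides. Hoxa5 had -0.57, -0.73, -0.60 and -0.60 in homozygotes, against 0.28, -0.35, -0.03 and 0.10 in wild type (-0.62 ± 0.19, limma adjusted p = 0.157). Its homozygous arrays lay close together, and the wild-type arrays spread more. These 2 genes passed when heterozygous replicate 4 was left out of the common spread (limma adjusted p = 0.0348 for Hoxb4 and 0.0375 for Hoxa5), and without single arrays their highest values were 0.241 and 0.368.

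The larger differences of the central genes came with a wider spread. Hoxc5 had -0.93, -0.99, -0.81 and -0.41 in homozygotes, against 0.25, -0.46, 0.17 and 0.04 in wild type (-0.79 ± 0.30, limma adjusted p = 0.229). Hoxa7 had -2.12, -0.70, -0.23 and -0.43 in homozygotes, against 0.37, -0.46, 0.02 and 0.07 in wild type (-0.87 ± 0.43, limma adjusted p = 0.332). Hoxb8 had -1.26, -0.50, -0.45 and -0.32 in homozygotes, against 0.22, -0.39, -0.06 and 0.23 in wild type (-0.63 ± 0.30, limma adjusted p = 0.318). For Hoxa7 and Hoxb8 homozygous replicate 1 was the lowest array by far, and wild-type replicate 2 lay among the other 3. Hoxc6 and Hoxd8, with -1.27 ± 0.51 and -1.11 ± 0.58, were lower by 2.41-fold and 2.16-fold on average. The remaining 8 genes of these groups (Hoxa4, Hoxa6, Hoxb5, Hoxb6, Hoxb7, Hoxc4, Hoxc8 and Hoxd4) differed by -0.67 (Hoxd4) to -0.10 (Hoxa6).

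Paralogue group 9, whose genes mark the trunk and its transition to the tail, showed wide spreads. Hoxd9 had -2.21, -3.32, -2.49 and -0.94 in homozygotes, against 0.41, -0.22, -0.76 and 0.57 in wild type. The difference was -2.24 ± 0.81 (limma adjusted p = 0.21). Its 2 dimmest homozygous arrays were not well above background, so neither its size nor the lack of overlap is a firm measurement, and with normexp background correction the difference was -0.96. Hoxc9 had -3.51, -2.35, -0.71 and -0.60 in homozygotes, against 0.30, -0.27, -0.78 and 0.75 in wild type (-1.79 ± 0.76, limma adjusted p = 0.265, and -1.57 with normexp). The first 2 of these homozygous arrays were far below all wild-type arrays, while the other 2 lay just above wild-type replicate 3. Hoxa9 was without overlap (-0.59 ± 0.38), while its further probe gave -0.54 with overlapping arrays, and Hoxb9 overlapped (-0.58 ± 0.49). Hoxc10 and Hoxd11 had -0.34 ± 1.02 and 0.39 ± 0.61, which are smaller than their errors.

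**Figure D3:**
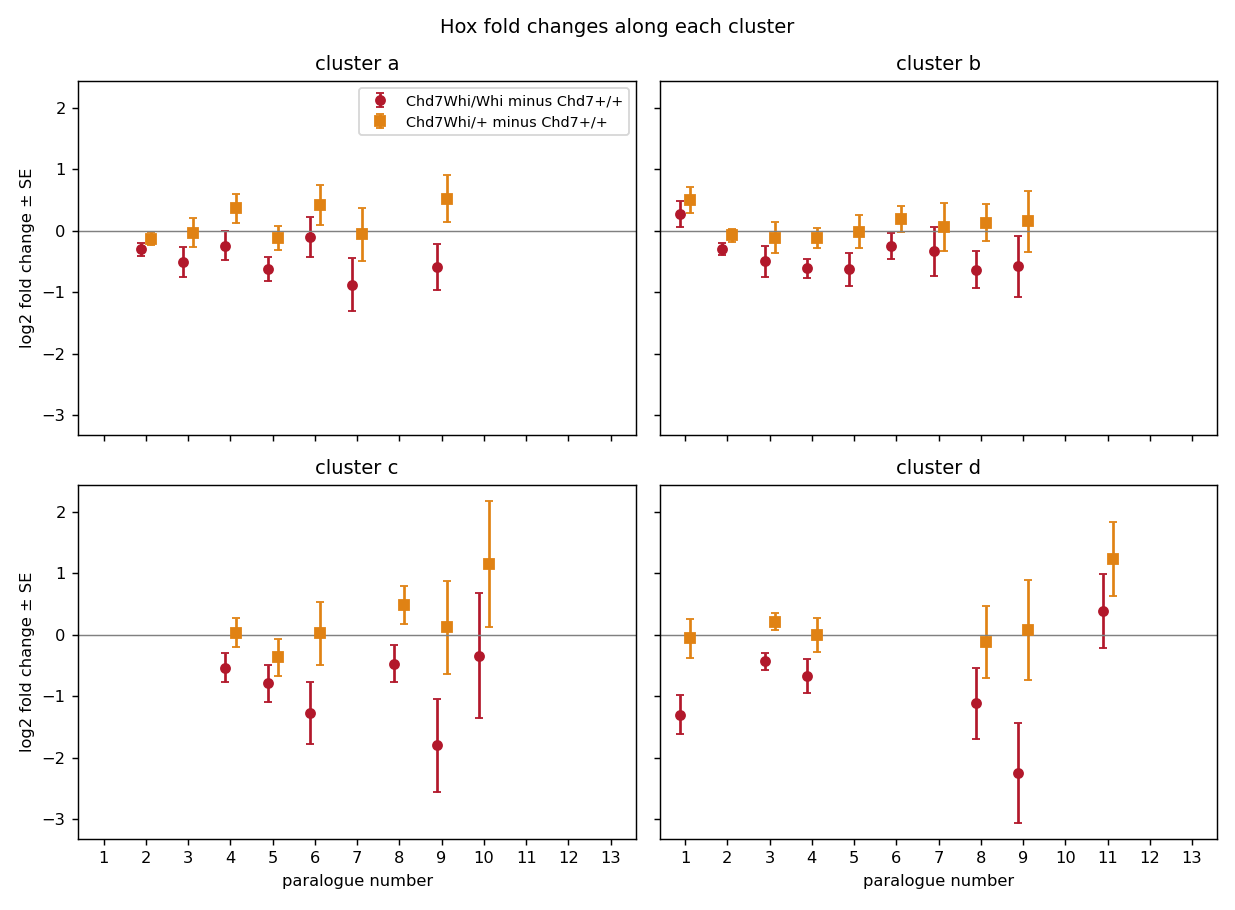
Log2 fold change with its standard error for each tested Hox gene against its paralogue number, in 1 panel per cluster, for homozygous minus wild type (circles) and heterozygous minus wild type (squares). Homozygous points lie below 0 for 26 of 28 genes, and the errors widen toward group 9 and beyond.

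By cluster, the median log2 difference between homozygous and wild-type embryos was -0.51 in cluster a (7 of 7 genes lower), -0.49 in cluster b (8 of 9), -0.66 in cluster c (6 of 6) and -0.89 in cluster d (5 of 6). The rank correlation of the difference with the paralogue number was -0.19 over the 28 genes of these arrays. With the spread over the 4 arrays of a genotype it was 0.67 in homozygotes, 0.72 in heterozygotes and 0.66 in wild type, all given as descriptions. The spread was thus wider in genes of high paralogue number in each genotype. The heterozygous value includes replicate 1 and is not given without it. Of the posterior genes, Hoxd9, Hoxc10 and Hoxd11 were not well above background on every array, and the part of dim signal in their spread was not tested. The median SD over the 4 homozygous arrays was 0.17 in anterior, 0.42 in central and 0.64 in posterior genes, and over the 4 wild-type arrays 0.21, 0.32 and 0.64. Over all genes tested it was 0.16 in homozygotes and 0.19 in wild type.

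**Figure D4:**
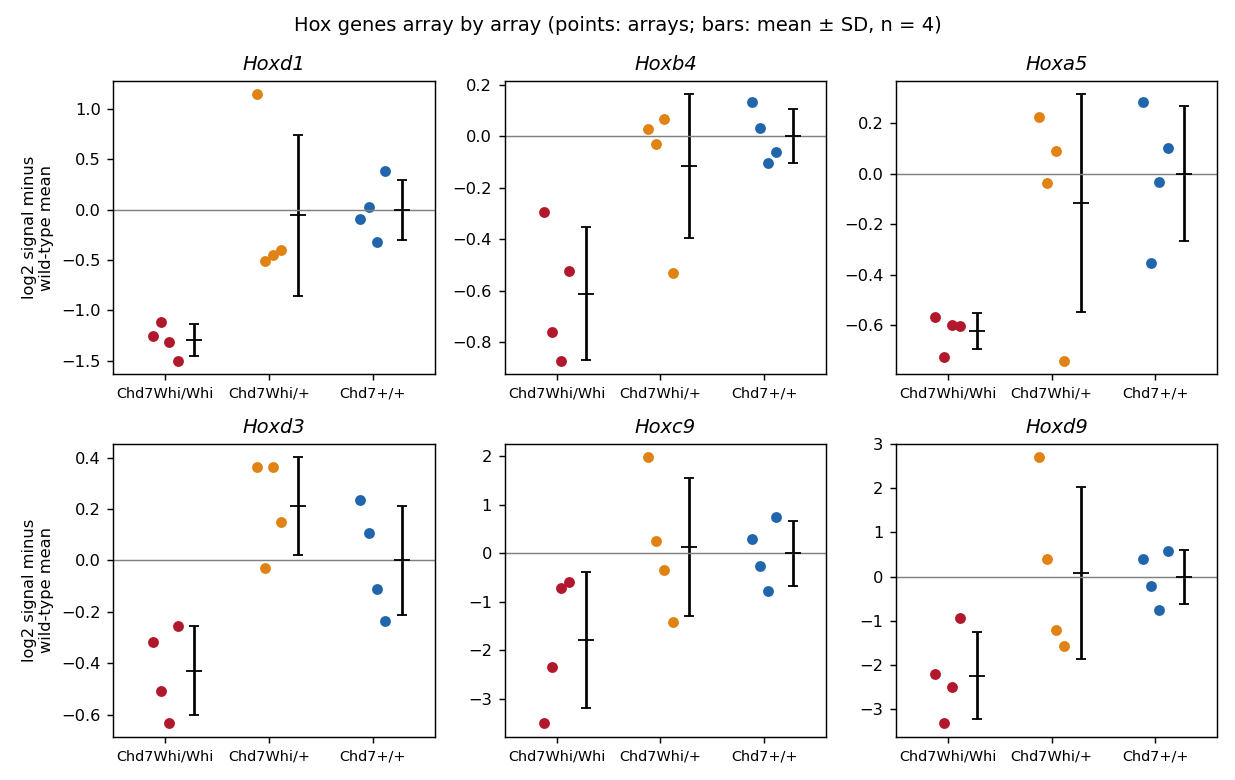
Log2 signal relative to the wild-type mean for 6 Hox genes, with 1 point per array and the mean ± SD (n = 4) beside each genotype, homozygous, heterozygous and wild type. For Hoxd1, Hoxb4, Hoxa5, Hoxd3 and Hoxd9 each homozygous array lies below each wild-type array, and for Hoxc9 they overlap.

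Markers of the tissues that express Hox genes were measured beside them, and none passed the test in homozygotes against wild type. Of 5 neural tube markers 4 were lower (median -0.28), with a summed signal of 8.60 to 11.01 in homozygotes and 9.13 to 13.2 in wild type. All 5 paraxial mesoderm markers were lower (median -0.27), with 10.9 to 11.6 in homozygotes and 12.1 to 14.3 in wild type. Of 5 tail bud markers 3 were lower (median -0.03), with 1.40 to 2 in homozygotes and 1.46 to 1.85 in wild type. Of 6 head markers 2 were lower (median 0.05), with 7.86 to 11.03 in homozygotes and 7.08 to 11.2 in wild type. Yolk sac and liver endoderm markers varied most, with 4.13 to 70.2 in homozygotes and 5.86 to 29.6 in wild type. At least 4 of the 5 or 6 markers of each of these lists were well above background on all arrays. Of the other lists, limb bud markers had a median of 0.00 (2 of 4 lower), heart markers 0.25 (0 of 5 lower), blood markers -0.31 (5 of 5), endoderm markers 0.60 (0 of 5) and decidua markers 0.08 (0 of 3 tested, with 2 of 5 above background on no array). The part of these tissues in the Hox values was not tested.

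In heterozygous embryos the Hox genes showed no common direction. Of 28 genes 12 were lower and 16 higher than in wild type, where 43.1% of all genes were lower, with a median of 0.04, which is also the median over all genes (0.04). With limma 0 of 28 passed, where 0.00886% of all genes did, and at an unadjusted p under 0.05 only Hoxb1 was higher and none was lower, where 10.6% of all genes were higher and 4.84% lower. Without heterozygous replicate 1, 21 of 28 were lower, the median was -0.17 and 0 passed. Without heterozygous replicate 4, only 3 of 28 were lower and the median was 0.34. The 2 arrays thus pulled in opposite directions: the median over the Hox genes was 0.82 on replicate 1 and -0.63 on replicate 4, against 0.01 and 0.11 on replicates 2 and 3. Over all genes tested, replicate 4 had the lowest median correlation with the other arrays of its genotype (0.9867, against 0.9905 for replicate 1). Within slides 1, 2 and 3 the median difference was 0.04, 0.33 and -0.75. The wild-type arrays are the same ones as in the homozygous comparison.

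Hoxb1 had 1.07, -0.19, 0.53 and 0.58 in heterozygotes (0.50 ± 0.21 relative to wild type, limma adjusted p = 0.297), and 0.31 ± 0.18 without replicate 1. Replicate 2 was the lowest of all 12 arrays for it and the other 3 were above all wild-type arrays. Hoxd3 had 0.36, -0.03, 0.36 and 0.15 (0.21 ± 0.14, limma adjusted p = 0.438, and 0.16 ± 0.15 without replicate 1). Hoxa4 had 0.89, -0.27, 0.67 and 0.18 (0.37 ± 0.24, limma adjusted p = 0.44, and 0.19 ± 0.23 without replicate 1). Both genes overlapped the wild-type arrays. Hoxc8 had 1.22, 0.03, 0.46 and 0.23 (0.48 ± 0.31, limma adjusted p = 0.431), with 0.24 ± 0.28 without replicate 1.

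The posterior genes were those most affected by heterozygous replicate 1. Hoxd11 had 3.68, 0.27, 0.74 and 0.25 in heterozygotes, against 0.23, -0.45, 0.12 and 0.09 in wild type. The heterozygous arrays were all above the wild-type arrays, the 1 Hox gene of which this was true where it was true of 4.48% of all genes (1.24 ± 0.61, limma adjusted p = 0.343). Without replicate 1 its difference was 0.42 ± 0.19. The heterozygous arrays were all below the wild-type arrays for 0 Hox genes, where 2.18% of all genes were. Hoxc10 had 5.03, -0.28, 0.46 and -0.60 in heterozygotes (1.15 ± 1.02, and -0.14 ± 0.48 without replicate 1). Hoxa9 had 1.92, -0.01, 0.24 and -0.04 (0.52 ± 0.38, limma adjusted p = 0.486, and 0.06 ± 0.20 without it). The direction of Hoxc10 and the size of Hoxd11 and Hoxa9 thus rested on 1 array. Hoxc9 and Hoxd9 had 1.99 and 2.70 on replicate 1, and differed from wild type by 0.12 and 0.08 with it and by -0.50 and -0.79 without it.

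**Figure D5:**
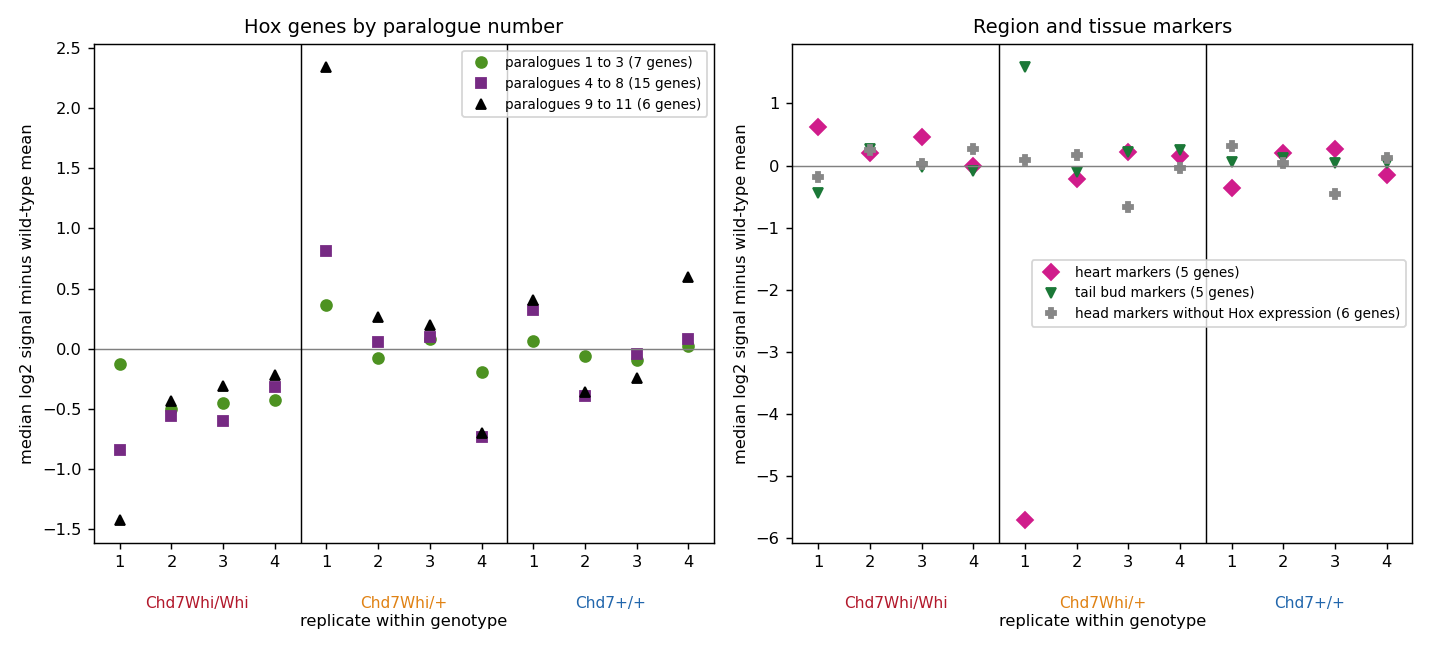
Median log2 signal relative to the wild-type mean on each of the 12 arrays, homozygous, heterozygous and wild type, for Hox genes by paralogue number (left) and for heart, tail bud and head markers (right). Heterozygous replicate 1 has the highest posterior Hox median (2.34) together with the lowest heart median (-5.71) and the highest tail bud median (1.59).

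Homozygous embryos were set directly against heterozygous ones as well. All 28 Hox genes were lower in value, against 59.1% of all genes, with a median of -0.62 and -0.03 over all genes. With limma 0 of 28 passed, where 0.0133% of all genes did, and at an unadjusted p under 0.05, 15 of 28 were lower, and 0 higher, where 3.73% of all genes were lower and 2.26% higher. Without heterozygous replicate 1 all 28 were still lower, with a median of -0.41, and 6 had an unadjusted p under 0.05. The homozygous arrays all lay below the heterozygous ones for 4 genes (Hoxd3, Hoxd1, Hoxc8 and Hoxa9) and above them for 0, where 1.65% of all genes lay below and 1.33% above. Within slides 1, 2 and 3 the median was -1.15, -0.67 and 0.10, and in slide 3, which holds heterozygous replicate 4, 13 of 28 genes were lower.

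Hoxd3 had the smallest p of this comparison, at -0.64 ± 0.14 (limma adjusted p = 0.281), and -0.59 ± 0.15 without heterozygous replicate 1. Hoxd1 had 1.15, -0.51, -0.45 and -0.40 in heterozygotes, each above all 4 homozygous arrays (-1.24 ± 0.32, limma adjusted p = 0.445). Without replicate 1 the 3 remaining heterozygous arrays lay between the homozygous and the wild-type ones, at -0.84 ± 0.16 from homozygous and -0.45 ± 0.16 from wild-type embryos (limma adjusted p = 0.26 and 0.312). Hoxb4 had 0.03, -0.03, 0.07 and -0.53 in heterozygotes (-0.50 ± 0.16 for homozygous minus heterozygous, limma adjusted p = 0.653, and -0.45 ± 0.17 without replicate 1). Homozygous minus heterozygous, Hoxc8, Hoxa9 and Hoxd9 had -0.95 ± 0.31, -1.11 ± 0.38 and -2.32 ± 0.81 (limma adjusted p = 0.667, 0.708 and 0.708). Without replicate 1 these were -0.71 ± 0.28, -0.65 ± 0.20 and -1.45 ± 0.58, so 1 array moved Hoxa9 and Hoxd9 by over 1.5 times. The difference with the paralogue number had a rank correlation of -0.65 over the 28 genes, and -0.23 without replicate 1. The posterior median was -1.30, and -0.60 without replicate 1.

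Promoters of 22 Hox genes, from 250 bases before to 50 bases after the start, were taken from RefSeq (GRCm38.p6, 1 window per gene) and searched on both strands for 3 kinds of motif. TGATNNAT, bound by HOX and PBX proteins together, was found in 3 of 22 (Hoxa2, Hoxb1 and Hoxb8) and in 9.04% of 27025 promoters of all genes. TTTATNG, bound by Cdx proteins, was found in 2 of 22 (Hoxb8 and Hoxd4) and in 11.3% of all. The retinoic acid response element was searched only as 2 exact copies of AGGTCA with a spacer of 2 or 5 bases. These forms were found in 0 of 22 and in 0.0074% of all promoters each. Strings this rare could hardly be met in 22 windows, so the 0 does not show that Hox promoters lack such elements. No matches overlapped. The median GC content was 56.8% in the 22 Hox promoters and 52.7% in all. The 4 windows shown are those of Hoxd1, with the smallest p in homozygotes, of Hoxb1, the gene of the same group with the opposite sign, and of Hoxb8 and Hoxd4, which hold Cdx motifs. They lie at chr2:74762730-74763029 on the plus strand, chr11:96365508-96365807 on the plus strand, chr11:96281655-96281954 on the plus strand and chr2:74721728-74722027 on the plus strand. Capitals mark matches of either motif, and that of Hoxd1 holds none.
Hoxd1: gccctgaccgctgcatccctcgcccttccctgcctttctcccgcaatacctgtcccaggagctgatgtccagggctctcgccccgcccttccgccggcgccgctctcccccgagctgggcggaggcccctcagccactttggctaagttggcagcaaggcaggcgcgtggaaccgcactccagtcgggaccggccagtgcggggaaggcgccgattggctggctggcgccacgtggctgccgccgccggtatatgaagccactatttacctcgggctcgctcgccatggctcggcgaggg
Hoxb1: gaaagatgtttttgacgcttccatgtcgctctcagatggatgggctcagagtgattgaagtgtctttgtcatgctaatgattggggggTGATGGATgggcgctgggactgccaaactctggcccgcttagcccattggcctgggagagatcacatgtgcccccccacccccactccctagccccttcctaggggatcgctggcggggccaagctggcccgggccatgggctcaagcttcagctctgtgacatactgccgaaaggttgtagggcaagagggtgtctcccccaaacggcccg
Hoxb8: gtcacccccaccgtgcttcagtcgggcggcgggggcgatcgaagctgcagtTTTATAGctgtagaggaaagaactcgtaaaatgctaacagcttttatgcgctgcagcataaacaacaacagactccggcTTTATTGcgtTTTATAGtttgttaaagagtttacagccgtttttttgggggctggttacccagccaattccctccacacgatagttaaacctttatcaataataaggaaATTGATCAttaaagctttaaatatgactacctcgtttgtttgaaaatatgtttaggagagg
Hoxd4: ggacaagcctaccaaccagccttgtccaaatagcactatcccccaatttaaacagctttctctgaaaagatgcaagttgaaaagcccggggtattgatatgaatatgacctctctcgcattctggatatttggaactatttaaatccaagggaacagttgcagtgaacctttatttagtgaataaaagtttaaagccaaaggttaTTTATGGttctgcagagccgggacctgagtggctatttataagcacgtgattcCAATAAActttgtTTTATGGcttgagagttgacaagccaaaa
The Hoxb1 match begins at -162 from the start. In Hoxb8 the Cdx motif begins at -199, -120 and -110 and the other motif at -11, and in Hoxd4 the Cdx motif begins at -45, 8 and 21. In homozygotes the 2 genes with Cdx motifs differed from wild type by -0.63 (Hoxb8) and -0.67 (Hoxd4), close to the median of the central genes.

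Of 92 genes tested on 9 lists of Hox regulators, partners, relatives and neighbours, 4 fell in homozygotes with limma. Of all genes 0.864% fell. The lists were chosen with earlier results of these data known, so setting the 2 shares side by side is no test. Cdx1, of the caudal family that switches on trunk Hox genes, had -0.56, -0.42, -1.005 and -1.27 in homozygotes, against -0.13, 0.08, 0.03 and 0.02 in wild type (-0.81 ± 0.16, limma adjusted p = 0.0371). Meox2, a somite homeobox gene listed with it, had -1.62, -1.80, -1.50 and -1.10 in homozygotes, against 0.23, -0.39, -0.04 and 0.20 in wild type (-1.51 ± 0.22, limma adjusted p = 0.00738). No homozygous array overlapped a wild-type one for either gene, and these were the 2 called genes of 7 tested on the list of Cdx, Evx, Gsx and related homeobox genes, of which 6 were lower (median -0.81). Meox2 passed without any 1 array. Cdx1 did not pass when 1 of homozygous replicates 3 and 4, wild-type replicates 1 to 4 or heterozygous replicate 3 was left out (limma adjusted p 0.0534 to 0.113).

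Nr2f1, a nuclear receptor of the hindbrain and forebrain, had -1.11, -1.24, -0.48 and -0.90 in homozygotes, against 0.27, -0.28, -0.06 and 0.07 in wild type (-0.93 ± 0.17, limma adjusted p = 0.0199). It was the 1 called gene of 8 hindbrain regulators, of which 3 were lower (median 0.35), and it did not pass without homozygous replicate 1 or 2 or wild-type replicate 1 or 4 (limma adjusted p 0.0643 to 0.0754). Lin28b, an RNA-binding protein of the tail bud, had -0.88, -0.86, -0.84 and -0.73 in homozygotes, against -0.02, -0.04, -0.06 and 0.13 in wild type (-0.83 ± 0.10, limma adjusted p = 0.00167). It was the 1 called gene of 11 tested for axis extension, of which 5 were lower (median 0.05), and it passed without any 1 array. With the array position as a block the differences of the 4 were -0.74 (Nr2f1) to -1.52 (Meox2). Only wild-type replicate 3 shared a position with homozygous arrays, so this block is no test of them. In heterozygotes these 4 genes were lower in value too, by -0.23 (Cdx1) to -0.66 (Meox2), with limma adjusted p of 0.237 or more.

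The partners and chromatin regulators of Hox genes and the retinoic acid genes had 0 members past an adjusted p of 0.05 with limma in any comparison. Of 9 Pbx, Meis and Prep cofactors 5 were lower in homozygotes than in wild type (median -0.02), with Meis2 at -0.41 ± 0.13 and Meis1 at -0.35 ± 0.11 (limma adjusted p = 0.166 and 0.168). Of 18 genes of the retinoic acid pathway 11 were lower (median -0.06). Among them were Aldh1a3, which makes retinoic acid, at -1.32 ± 0.31 (limma adjusted p = 0.0642), and Cyp26c1, which breaks it down, at -1.13 ± 0.28 (limma adjusted p = 0.0788). Of 10 Trithorax and MLL genes 5 were lower (median 0.02) and of 16 Polycomb genes 8 (median 0.01), with Ring1 at 0.50 ± 0.14 (limma adjusted p = 0.119).

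The genes that flank the clusters were set beside the Hox genes as well. Of 12 such genes tested 8 were lower in homozygotes, with a median of -0.13, and 0 were called with limma. Those with the smallest p were Calcoco1 at 0.66 ± 0.21 and Cbx1 at -0.41 ± 0.14 (limma adjusted p = 0.161 and 0.179). Of the noncoding transcripts of the clusters, 2 were measured: Hoxd3os1 (-0.36 ± 0.41) and Hoxa11os (-0.16 ± 0.76). Hoxa11os lay at 4.21 on heterozygous replicate 1, against -0.26 to 0.46 on the other heterozygous arrays, which is the array with the posterior Hox signals.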

How the data were processed

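The authors scanned 12 1-colour Agilent arrays with Feature Extraction 10.7.3.1, per the file headers, and deposited the spot intensity of each array, from which the background-subtracted processed signal was used here. The series value table deposited by the authors holds the same processed signal on the linear scale, so that using it repeats the values. Signals were divided by the 75th percentile of their array and put on the log2 scale, without control spots and spots marked as outliers (752 probe values, 0 of them of Hox probes). Of 39429 probes 26055 were named through their accessions with RefSeq's table (GRCm38.p6, for names only), giving 19751 genes, and 13374 kept the file's identifier. The brightest probe by mean stood for a gene. A gene was tested if 1 or more genotypes had its probe well above background on each of their arrays (22568 genes).

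One limma 3.58.1 fit (R 4.3.3) over 12 arrays gave all comparisons, with p-values adjusted by Benjamini-Hochberg over all genes tested. The fit was tested on simulated data. Tables and plots were made with Python 3.11.15 and matplotlib 3.10.9. The number of arrays limits the precision. The Hox genes, companion lists and rules were chosen with earlier results of these data known. Values on every array were given for the 6 Hox genes of smallest p in each comparison, and in each cluster for the gene with the smallest p and that with the largest difference between homozygotes and wild type. From each companion list the members past 0.05 were named, or else the 2 of smallest p among those described. Alternatives covered background correction, normalization, dim-probe filter, probe choice, slide, position and title-number blocks, leaving out each array, weighting arrays, the samples in the fit and its variance model.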

Additional observations from a re-analysis of the deposited data

Results flagged for a closer look

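Of 108 sets of 4 arrays (the signals of a Hox gene, or the median of a Hox class or cluster, in 1 genotype), 5 held an array that lay far from the other 3, all of them in Chd7Whi/+ embryos, and chance alone marks about 1 set in 20. Heterozygous replicate 1 was the distant array for 4 genes. Relative to the wild-type mean it had 0.0544 for Hoxa2 (the other 3 lay at -0.197 to -0.173), 1.92 for Hoxa9 (-0.0432 to 0.236), 1.15 for Hoxd1 (-0.512 to -0.401) and 3.68 for Hoxd11 (0.253 to 0.744). This is the array on which heart markers were lowest and tail bud markers highest, and the part of that in the Hox values was not tested. Heterozygous replicate 4 was the distant array for Hoxb4, at -0.529 with the other 3 at -0.0297 to 0.0670.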

How the results depend on the processing

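Results were recomputed under 29 alternatives (28 for Hoxd9 and Hoxd11, which the all-array filter leaves out), of which the series value table repeats the same signals and tests nothing. The Hox median of Chd7Whi/Whi minus Chd7+/+ stayed below 0 in all of them (-0.64 to -0.36), as did that of Chd7Whi/Whi minus Chd7Whi/+ (-0.82 to -0.41), while that of Chd7Whi/+ minus Chd7+/+ took both signs (-0.17 to 0.34). Leaving out 1 array gave -0.64 to -0.42, -0.82 to -0.41 and -0.17 to 0.34 for the same 3. Some alternatives cannot move such a median, and its sign under them shows nothing. These are the fit with only the genotypes compared, the trend and robust variance, and leaving out an array of the genotype not compared. They change only the errors and p-values of single genes. The number of Hox genes past the threshold between homozygotes and wild type was 1 with only these genotypes in the fit (Hoxd1, limma adjusted p = 0.00783), 1 with array weights (Hoxb4, 0.0411) and 0 to 2 when 1 array was left out, and 0 in the other comparisons. The count over all genes for homozygotes against wild type was 91 with normexp, 188 without the filter, 20 with the position block, 19 with the title-number replicate block, 544 with array weights and 112 to 447 without 1 array. For heterozygotes against wild type it was 1 with normexp, 5 without the filter, 1 with the all-array filter, 5 with slide as a fixed block, 0 with the title-number replicate block, 1 with only these genotypes, 1 with trend and robust variance and 0 to 3 without 1 array. For homozygotes against heterozygotes it was 0 with normexp, the position block, the title-number replicate block or only these genotypes, 7 with array weights and 1 to 6 without 1 array. Hoxc8 in heterozygotes against wild type turned to -0.0114 with normexp and to -0.11 with the position block. Heterozygous and wild-type arrays shared no position, so the value of -0.11 is reached only through homozygous arrays. The causes of the other changes were not tested. Cdx1, Meox2, Nr2f1 and Lin28b did not pass with the title-number replicate block (limma adjusted p 0.125 to 0.234). Cdx1 and Nr2f1 did not pass with normexp, nor did Cdx1 without the filter or with only these genotypes. Some title numbers are shared across genotypes, but the labels do not say what they mark. Homozygous replicates 1 and 4 shared theirs with no other array, so that block compares only homozygous replicates 2 and 3 with other genotypes. The deviations of arrays with the same number correlated at -0.32 to 0.29, so they were not treated as pairs. Under the title-number block the Hox median was -0.36 for homozygotes against wild type, from these 2 homozygous replicates only.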
